A study of Mus musculus with 20 samples.

Results

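The dystrophin glycoprotein complex was examined through 9 of its genes, chosen by symbol: Dmd, Utrn, Dag1, Sgca, Sgcb, Sgcd, Sgce, Sntb1 and Sntb2. All 9 were among the 24393 genes of the count table, and all 9 passed the filter on low counts that left 14179 genes for testing. Sgca reached its cutoff chiefly in a single population, named SMP, as given below. RNA had been sequenced from 3 cell populations, labelled FAP, Misc and SMP, of mouse leg muscle (gastrocnemius, quadriceps and tibialis anterior) under the conditions DKO and WT. Of the 20 libraries, FAP and Misc contributed 4 per condition and SMP 2 per condition. FAP is the usual short name of fibro/adipogenic progenitors, the mesenchymal cells between fibres, and SMP of skeletal muscle progenitors. The design text calls the third population FB where the sample labels say Misc, and Misc is used here. The labels name neither the genes behind DKO nor the age, sex or strain of the mice, nor how the cells were sorted or whether animals were pooled. From background it is assumed here that DKO means loss of desmin and nesprin 1. Des fell in every population, while Syne1 passed the test in Misc and SMP and not in FAP (adjusted p = 0.11 there, edgeR quasi-likelihood test). RNA of both was still counted in every DKO library, and whether the counted parts lie outside a deleted stretch is not given.

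The complex links the actin cytoskeleton to the basement membrane across the plasma membrane. Dystrophin (Dmd), or its autosomal relative utrophin (Utrn), binds actin inside the cell and the beta subunit of dystroglycan at the membrane. Dystroglycan (Dag1) is cut into an outer alpha subunit, whose sugars bind laminin, and a membrane-spanning beta subunit. Sarcoglycans (Sgca, Sgcb, Sgcd, Sgce) brace dystroglycan in the membrane, with alpha-sarcoglycan known from striated muscle and epsilon-sarcoglycan from many tissues. Syntrophins (Sntb1, Sntb2) are adaptors that carry signalling proteins to dystrophin. In satellite cells, the stem cells of muscle, dystrophin is known for a part in polarity and asymmetric division.

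Dmd and Sgca were both much higher in SMP than in the other populations, so the bases just before their transcription starts are shown. They are reference sequence from RefSeq (GRCm38.p6, the assembly named mm10), 250 bases long and read 5′ to 3′ along the gene's strand up to the base before the start. Capitals mark the E-box motif CANNTG, the kind of site that myogenic basic helix-loop-helix factors bind, and the CArG box, the kind that serum response factor binds. Dmd has a start of full-length dystrophin at chrX:82948620-82948869 (plus strand) and, far downstream, a start of a short form at chrX:85048045-85048294 (plus strand). The Sgca window lies at chr11:94976328-94976577 (minus strand).
Dmd, full-length start: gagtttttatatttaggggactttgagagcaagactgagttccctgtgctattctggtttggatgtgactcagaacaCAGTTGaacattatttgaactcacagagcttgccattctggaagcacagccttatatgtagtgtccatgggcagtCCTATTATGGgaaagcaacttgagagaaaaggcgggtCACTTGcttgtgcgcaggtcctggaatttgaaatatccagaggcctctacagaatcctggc
Dmd, short-form start: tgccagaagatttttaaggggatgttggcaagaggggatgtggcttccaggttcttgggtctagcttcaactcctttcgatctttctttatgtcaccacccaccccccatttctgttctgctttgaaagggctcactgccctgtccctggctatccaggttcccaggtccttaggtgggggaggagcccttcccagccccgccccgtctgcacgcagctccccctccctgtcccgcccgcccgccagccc
Sgca: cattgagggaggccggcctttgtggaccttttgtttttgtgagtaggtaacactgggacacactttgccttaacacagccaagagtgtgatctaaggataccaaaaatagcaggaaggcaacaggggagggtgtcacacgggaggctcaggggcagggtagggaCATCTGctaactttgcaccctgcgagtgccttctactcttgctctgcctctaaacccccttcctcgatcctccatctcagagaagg
The full-length Dmd window held 2 E-boxes, CAGTTG at 173 to 168 bases before the start and CACTTG at 61 to 56, and 1 CArG box, CCTATTATGG at 98 to 89. The short-form window held 0 of either motif and 3 GC boxes (GGGCGG). The Sgca window held 1 E-box, CATCTG, at 86 to 81. Matches were sought on both strands. An E-box occurred in 66.2% of all 32851 RefSeq windows of this length, a CArG box in 1.5% and a GC box in 32.7%, so the CArG box is the rarer match. Of the 9 genes 6 had such a window, and Sgce, Sntb1 and Sntb2 had none. Among the windows not shown, that of Utrn held 7 E-boxes, that of Sgcd 2, each of Dag1 1 and that of Sgcb 0. Sgcd was lowest in SMP, so E-boxes were not confined to members high there. Whether any of these sites is bound was not tested. The counts are per gene and cannot separate the Dmd starts.

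Abundance is given below as CPM, counts per 1e6 of the library total after TMM scaling, and fold changes as log2 values ± SE from edgeR's quasi-likelihood test fitted to all 6 groups. A gene is said to have risen or fallen where the adjusted p (Benjamini-Hochberg over the 14179 genes) was below 0.05. Library totals ran from 5.83 to 17.73 M counts, with SMP DKO the shallowest group. Labels were checked against markers by their summed CPM. The 8 satellite cell markers summed to 1696 to 1880 in SMP and to 41.1 to 122 elsewhere. The 7 fibro/adipogenic markers summed to 20948 to 25018 in FAP, 16146 to 23852 in Misc and 1207 to 3780 in SMP. The 6 tendon markers summed to 48640 to 71020 in Misc and to at most 5200 elsewhere. SMP also stood above the others in mature fibre markers within each genotype. The 10 of them summed to 54.2 and 67.8 CPM in SMP WT and to 22.9 to 37.5 in the other WT libraries. In DKO they summed to 240 and 555 in SMP and to 28.7 to 78.8 elsewhere. Markers of 2 further cell types were also higher in SMP. The 8 smooth muscle and pericyte markers summed to 1008 to 1426 in SMP and to at most 229 elsewhere, and the 6 Schwann markers to 183 to 305 against at most 58.5. Satellite cell markers were thus highest in SMP, and tendon markers in Misc. SMP DKO replicate 2 stood apart, with a leukocyte marker sum of 274 CPM against 27.5 in replicate 1, an endothelial sum of 482 against 97.9 and a fibro/adipogenic sum of 3780 against 1207.

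Among wild-type libraries the complex differed in make-up between the populations (the plot of the members' CPM by library). SMP held more Dmd, Dag1, Sgca, Utrn and Sntb1 than FAP, and less Sgce, Sgcd, Sgcb and Sntb2. Outside SMP, Sgca reached the cutoff of the low-count filter only in Misc DKO replicates 1 and 2, with 8 and 9 counts. Its passing leaned on SMP, and it is left out of the counts against SMP. With it, 9 members passed between SMP and FAP (5 higher, 4 lower) and 8 between SMP and Misc (5 higher, 3 lower). All 8 other members passed the test between SMP and FAP, 4 higher and 4 lower, where 62.3% of all tested genes passed (31.3% higher, 31.1% lower). Between SMP and Misc 7 of the 8 passed, 4 higher and 3 lower, against 60.6% of all genes (30% and 30.6%). Between FAP and Misc 7 of the 9 passed, 5 higher and 2 lower, against 36.9% (19.3% and 17.6%). So most genes differ between SMP and the other populations, and it is the sizes and directions below that describe the complex. Of the smooth muscle and pericyte markers 5 of 8 were higher and 1 lower in SMP than in FAP, and 7 higher and 1 lower than in Misc. Of the 6 Schwann markers 5 were higher in each comparison, with 1 lower against FAP. Of the 10 mature fibre markers 5 were higher against FAP and 3 against Misc, with 0 lower in either. No marker of these lists was at 0 in all libraries of a group, and the part of these markers in the SMP differences was not tested.

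**Figure D1:**
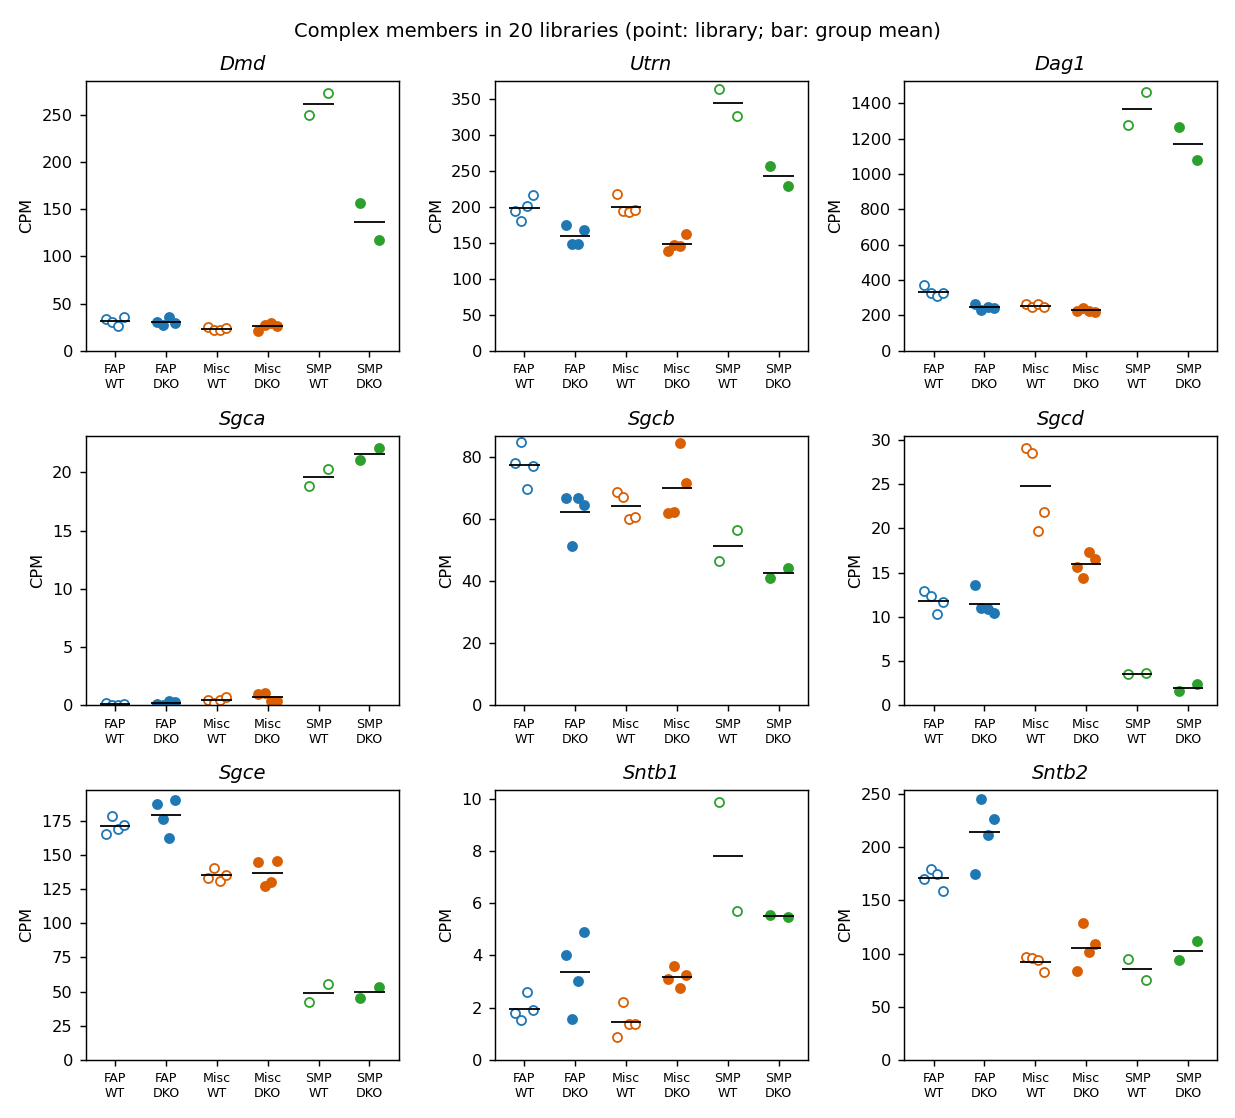
Abundance of the 9 members in each of the 20 libraries (CPM, linear axes that start at 0 and differ between panels), 1 panel a gene, with the 6 groups along the x axis, open points for WT, filled points for DKO and a bar at the group mean. Dmd, Dag1 and Sgca stand highest in SMP, whereas Sgce, Sgcd and Sgcb stand lowest there.

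Dmd (Entrez 13405, chromosome X, 82814664 to 85205050 in mm10, plus strand; longest transcript 14.91 kb in 79 exons) was at 250.3 and 273 CPM in SMP WT. It was at 34.2, 30.9, 25.8 and 35.6 CPM in FAP WT and at 25.7, 21.8, 22.5 and 24.0 in Misc WT. Both SMP libraries lay above every FAP and Misc library. The difference was 3.05 ± 0.14 on the log2 scale from FAP (8.28-fold, adjusted p = 5.8e-15) and 3.48 ± 0.14 from Misc (11.1-fold, adjusted p = 1.5e-15). FAP WT in turn lay above Misc WT without overlap (0.43 ± 0.12, adjusted p = 0.0078), and in DKO that difference did not pass (0.24 ± 0.13, adjusted p = 0.16).

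Utrn (Entrez 22288, chromosome 10, 12382187 to 12869888, minus strand; 12.38 kb, 74 exons) varied less. It was at 363 and 326 CPM in SMP WT, at 194, 180.5, 201 and 216 in FAP WT and at 217, 194, 193 and 195 in Misc WT. SMP was higher than FAP by 0.80 ± 0.11 and than Misc by 0.78 ± 0.11 (adjusted p = 5.8e-07 and 8.8e-07). With a smooth trend of transcript length removed in each library the differences were 0.23 and 0.31, still past the threshold (adjusted p = 0.043 and 0.0068). FAP and Misc overlapped, with a difference of −0.02 and a 95% interval of −0.20 to 0.17.

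The balance of Dmd and Utrn can be read per kb of transcript. Per kb, Utrn was the more abundant of the pair in all 6 groups. Drp2, dystrophin related protein 2, stood above both in SMP, at 53.5 CPM per kb in WT and 76.6 in DKO. Utrn was at 27.8 and 19.6 there. In FAP WT and Misc WT Drp2 was at 1.47 and 3.27 CPM per kb, below Utrn at 16.0 and 16.2. The ratio of Dmd to Utrn per kb was 0.572 and 0.697 in the SMP WT libraries, 0.107 to 0.146 in FAP WT and 0.0934 to 0.102 in Misc WT. In DKO it was 0.426 and 0.507 in SMP, below both SMP WT libraries. In Misc DKO it was 0.124 to 0.169, above all 4 Misc WT libraries, and in FAP DKO it was 0.142 to 0.201, overlapping FAP WT. Short Dmd forms share the last exons, so their reads count toward Dmd while their length is not used, and this ratio describes the gene and not full-length dystrophin.

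Dag1 (Entrez 13138, chromosome 9, 108204861 to 108263977, minus strand; 5.66 kb, 4 exons) was the most abundant member per kb in SMP, at 242 CPM per kb in WT. Its CPM was 1275 and 1464 in SMP WT, 373, 327, 309 and 324 in FAP WT and 263, 246, 262 and 249 in Misc WT. The 3 groups did not overlap. SMP exceeded FAP by 2.04 ± 0.11 (4.11-fold, adjusted p = 8.4e-14) and Misc by 2.42 ± 0.11 (5.37-fold, adjusted p = 6.9e-15). FAP exceeded Misc by 0.39 ± 0.09 (adjusted p = 0.0014) in WT. In DKO the FAP libraries, at 230.2 to 264 CPM, overlapped the Misc libraries, at 221 to 244, and the difference did not pass (0.10 ± 0.09, adjusted p = 0.45).

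The sarcoglycans split by population. Sgca (Entrez 20391, chromosome 11, 94962777 to 94976327, minus strand; 1.72 kb, 11 exons) was at 18.8 and 20.3 CPM in SMP WT and at 21.1 and 22.1 in SMP DKO. In FAP it drew 3, 0, 0 and 1 counts in the WT libraries and 1, 0, 4 and 3 in the DKO libraries. A count of 0 in the FAP libraries allows up to 0.250 to 0.470 CPM (3 counts of the library), so Sgca was close to undetectable in FAP at this depth. In Misc it drew 2 to 8 counts in WT and 3 to 9 in DKO, or 0.441 ± 0.215 CPM (SD, n = 4) and 0.705 ± 0.384. Both SMP groups lay far above every Misc library, a difference given here as levels alone because Sgca passed the filter chiefly through SMP. FAP was below Misc in WT (−2.12 ± 0.71, adjusted p = 0.021), a call lost without FAP WT replicate 2 (0.060) or 3 (0.072) or Misc WT replicate 4 (0.054).

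Sgce (Entrez 20392, chromosome 6, 4674350 to 4747204, minus strand; 1.78 kb, 12 exons) ran the other way. It was at 166, 178, 169 and 172 CPM in FAP WT, at 133, 141, 131 and 135 in Misc WT and at 42.6 and 55.3 in SMP WT. The groups did not overlap. SMP was lower than FAP by −1.81 ± 0.12 and than Misc by −1.47 ± 0.12 on the log2 scale (adjusted p = 6.0e-12 and 2.5e-10), and FAP was higher than Misc by 0.34 ± 0.09 (adjusted p = 0.0034). The same order held in DKO, where the values were −1.86 ± 0.12, −1.47 ± 0.12 and 0.39 ± 0.09.

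Sgcd (Entrez 24052, chromosome 11, 46971077 to 47989451, minus strand; 1.62 kb, 8 exons) was highest in Misc. Its CPM was 29.1, 28.5, 19.7 and 21.8 in Misc WT, 13.0, 12.4, 10.3 and 11.7 in FAP WT, and 3.57 and 3.59 in SMP WT. No group overlapped another. FAP was lower than Misc by −1.07 ± 0.14 (adjusted p = 8.0e-07) and SMP lower than FAP by −1.72 ± 0.21 (adjusted p = 1.2e-07). Sgcb (Entrez 24051, chromosome 5, 73632749 to 73647737, minus strand; 3.79 kb, 6 exons) varied least among the sarcoglycans, at 69.7 to 84.6 CPM in FAP WT, 60.01 to 68.7 in Misc WT, and 46.3 and 56.3 in SMP WT. SMP was lower than FAP by −0.59 ± 0.13 (adjusted p = 0.00048). Its other WT differences sat near the threshold, at −0.32 ± 0.13 for SMP against Misc (adjusted p = 0.038) and 0.27 ± 0.11 for FAP against Misc (adjusted p = 0.0498). The former was lost with DESeq2 size factors (adjusted p = 0.054), with the DESeq2 Wald test (0.056) and without SMP WT replicate 1, where it was −0.20 (adjusted p = 0.33). The latter was lost with the same 2 settings (0.053 and 0.054), with no filter on low counts (0.069), and without any of the Misc WT replicates or FAP WT replicates 1, 2 and 4 (adjusted p up to 0.15).

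Of the sarcoglycan RNA per kb, summed over the 4 genes, Sgce made up 76.5 to 79.4% in FAP WT, 67.3 to 72.3% in Misc WT, and 48.6 and 51.9% in SMP WT (the stacked plot of sarcoglycan shares). Sgca made up 19.7 and 22.1% in SMP WT and at most 0.372% in any FAP or Misc WT library. The shares use the longest RefSeq-matched transcript of each gene, and another transcript model would shift them. The sum itself was 49.3 and 60.03 CPM per kb in SMP WT against 120 to 130.5 in FAP WT and 102 to 115 in Misc WT. SMP therefore had less sarcoglycan RNA in all, and more of it was Sgca. In SMP DKO Sgca made up 22.9 and 24.7%, above both SMP WT libraries. Sgcd made up 11.9 to 16.2% in Misc WT and 8.96 to 10.1% in Misc DKO, without overlap.

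**Figure D2:**
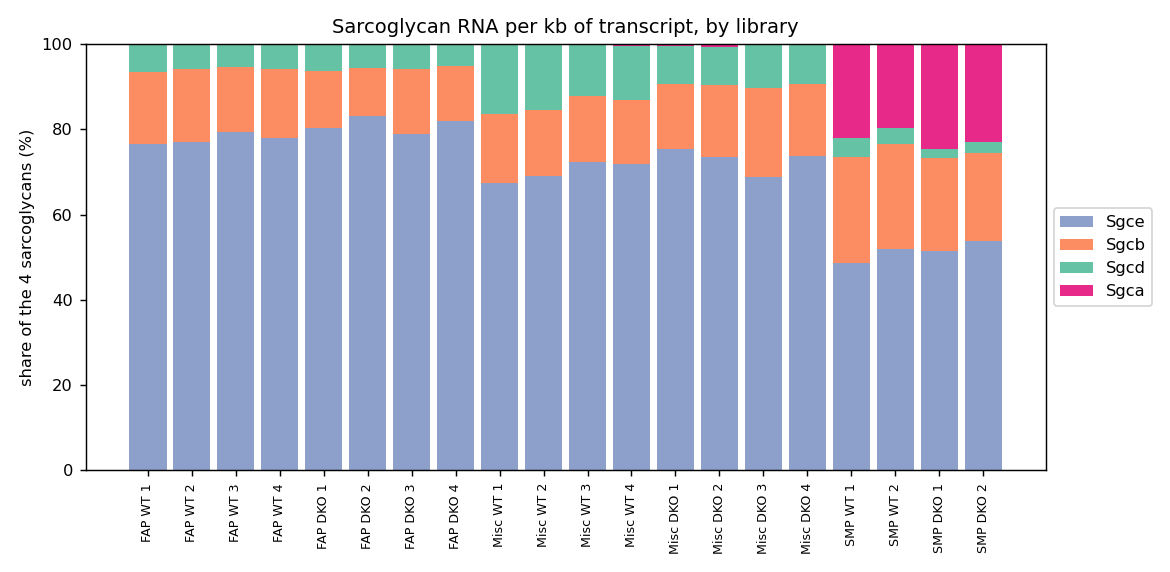
Share of each sarcoglycan in the summed CPM per kb of Sgca, Sgcb, Sgcd and Sgce (percent of 100), with a stacked bar for each of the 20 libraries. Sgca takes 19.7 to 24.7% in the 4 SMP libraries and at most 0.639% in any other, and the Sgcd part is 11.9 to 16.2% in Misc WT and 8.96 to 10.1% in Misc DKO.

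The beta syntrophins differed in opposite directions between SMP and FAP. Sntb2 (Entrez 20650, chromosome 8, 106935740 to 107014232, plus strand; 9.95 kb, 7 exons) was at 170, 180, 175 and 159 CPM in FAP WT, at 96.8, 95.5, 93.8 and 82.6 in Misc WT, and at 94.8 and 75.5 in SMP WT. FAP was above both others, by 0.89 ± 0.12 over Misc (adjusted p = 1.5e-06), and SMP was below FAP by −1.01 ± 0.15 (adjusted p = 4.0e-06). SMP and Misc overlapped, with a difference of −0.12 and a 95% interval of −0.42 to 0.19. With the length trend removed that difference was −0.49 and passed (adjusted p = 0.0056). Sntb1 (Entrez 20649, chromosome 15, 55636388 to 55907302, minus strand; 4.92 kb, 7 exons) was low everywhere. It was at 9.89 and 5.70 CPM in SMP WT, at 1.52 to 2.59 in FAP WT and at 0.884 to 2.21 in Misc WT. SMP was higher than FAP by 1.98 ± 0.33 and than Misc by 2.43 ± 0.34 (adjusted p = 1.4e-05 and 1.3e-06). FAP and Misc overlapped (0.44 ± 0.33, adjusted p = 0.31).

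In DKO the populations kept most of these directions. Without Sgca, 7 of the 8 members passed between SMP and FAP, 3 higher and 4 lower (58.8% of all genes, 29.6% higher and 29.2% lower), and between SMP and Misc 6 passed, 3 higher and 3 lower (59.5%, 29.7% and 29.8%). Sntb1 was the member that no longer passed in either comparison, at 0.67 ± 0.35 (adjusted p = 0.10) and 0.79 ± 0.35 (adjusted p = 0.057). The SMP and Misc difference of Sntb1 passed with DESeq2 size factors (adjusted p = 0.044), the DESeq2 Wald test (0.048) and a fit of those populations alone (0.041), and the SMP and FAP difference without FAP DKO replicate 4 (0.040). Dmd still passed, but by 2.15 ± 0.14 over FAP and 2.39 ± 0.14 over Misc, smaller values than in WT. All 10 mature fibre markers were higher in SMP DKO than in FAP DKO and in Misc DKO, and their part in these differences was not tested. Between FAP and Misc 4 members passed in DKO, Sgce and Sntb2 higher and Sgca and Sgcd lower (29.7% of all genes, 16% higher and 13.7% lower). The Sgca call there rests on 8 and 23 counts in all, and with replicate number as a block within genotype it no longer passed (adjusted p = 0.082). It was also lost without replicate 1 or 2 of FAP DKO or of Misc DKO (adjusted p = 0.088 to 0.13).

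DKO was then compared with WT within each population (the plot of DKO effects). Utrn was lower in DKO in all 3. In FAP 2 of the 9 members passed, both lower, where 10.7% of all genes passed (5.58% higher, 5.14% lower). In Misc 3 passed, 2 lower and 1 higher, against 18.7% (9.55% lower, 9.15% higher). In SMP 3 passed, all lower, against 23% (11.2% lower, 11.8% higher). The shares that fell stand above those of all genes, but they rest on 2 or 3 of 9 genes and were not tested. The members are therefore described singly. The median log2 change of the 9 was −0.04 in FAP, 0.13 in Misc and −0.27 in SMP, beside −0.02, 0.01 and 0.01 over all tested genes.

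**Figure D3:**
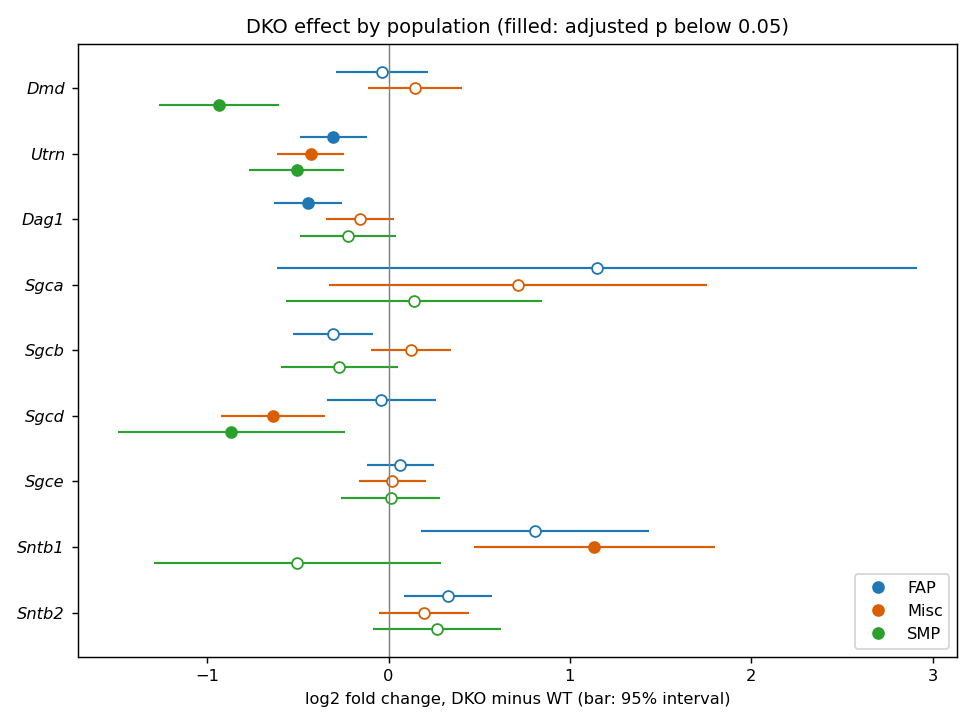
Log2 fold change of DKO against WT for each member in FAP, Misc and SMP, with 95% intervals from the fit; filled points passed the test and open points did not. Dmd lies near 0 in FAP and Misc and at −0.93 in SMP, and Utrn lies below 0 in all 3.

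Dmd fell in SMP and not detectably elsewhere. The SMP DKO libraries held 156 and 117 CPM and the SMP WT libraries 250.3 and 273, so both DKO libraries lay below both WT libraries. The change was −0.93 ± 0.16 (0.523-fold, 95% interval −1.27 to −0.60, adjusted p = 0.00029). In FAP DKO it was at 30.0, 27.1, 36.0 and 29.7 CPM, within the WT range or close to it (−0.04 ± 0.12, 95% interval −0.29 to 0.22). The Misc DKO libraries, with 20.7, 27.5, 29.7 and 26.2 CPM, overlapped WT (0.15 ± 0.13, 95% interval −0.12 to 0.41). The effect in SMP differed from that in FAP by −0.90 ± 0.20 (adjusted p = 0.0062) and from that in Misc by −1.08 ± 0.20 (adjusted p = 0.0013). These tests of the difference called 1 member for SMP against FAP, where 10.3% of all genes passed, and 2 for SMP against Misc, where 8.94% passed. The SMP libraries of both comparisons are the same, so the 2 tests are not separate evidence.

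Several other measures moved with the SMP comparison. Of 10 mature fibre markers 8 rose in SMP DKO, and their sum was 240 and 555 CPM against 54.2 and 67.8 in WT. Smooth muscle and pericyte markers, which include Myh11 and Rgs5, summed to 1403 and 1426 CPM in WT and to 1008 and 1118 in DKO, with 1 of 8 lower and 0 higher. Satellite cell markers summed to 1875 and 1880 CPM in WT and to 1763 and 1696 in DKO, with 1 of 8 higher and 2 lower. That near-level sum covers opposite moves, since Pax7 fell from 266 to 112 CPM and Chrdl2 from 221 to 88.3 while Myod1 rose from 136 to 345. Calcr went from 297 to 128 CPM without passing (adjusted p = 0.076, edgeR), and Vcam1 from 585 to 672 (adjusted p = 0.45). No marker of these 3 lists was at 0 in all libraries of an SMP group. Of 5 leukocyte markers tested 3 rose; Cd3e was at 0 in SMP DKO, and Adgre1, Itgam and Cd3e were among those at 0 in SMP WT. In such bulk libraries, fewer cells of a type and less RNA per cell cannot be told apart, and the part of these markers in the Dmd result was not tested. With replicate 2 of SMP DKO left out, Dmd remained lower and passed (its adjusted p was at most 0.0087 with any single library left out).

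Transcript length also moved with the SMP comparison (the plot of fold change by transcript length). Over 13644 genes the Spearman correlation of length with log2 change was −0.08 in FAP, −0.17 in Misc and −0.23 in SMP, given as a description across genes that are not independent. Of 10 equal length classes, the longest, from 6617 bases, had a median change of −0.21 in SMP, and the shortest 0.34. Dmd, Utrn and Sntb2 are in the longest class. With a smooth length trend removed per library, the Dmd change in SMP was −0.52 (adjusted p = 0.012), a smaller value on the same side of the threshold. The difference of its effect between SMP and FAP was then −0.47 and no longer passed (adjusted p = 0.096), and that between SMP and Misc was −0.81 (adjusted p = 0.0056).

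**Figure D4:**
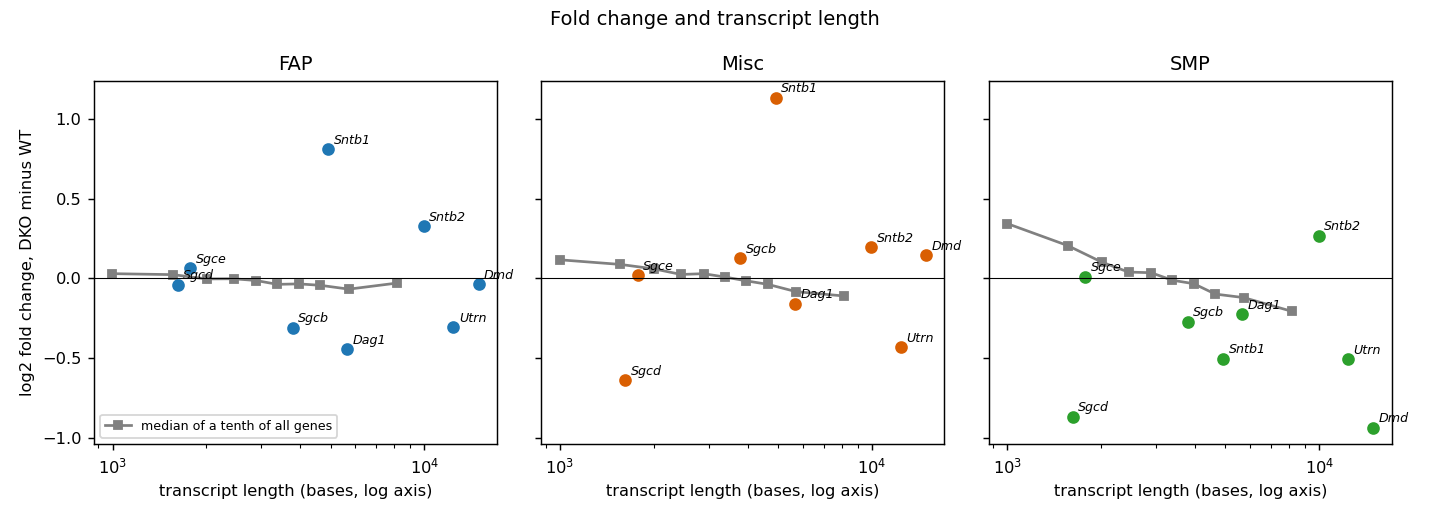
Median log2 fold change of DKO against WT in each of 10 equal classes of transcript length (lines), at the class's median length in bases (log axis), for FAP, Misc and SMP, with the members other than Sgca as points at their own lengths. The SMP line falls from 0.34 in the shortest class to −0.21 in the longest, and Dmd at −0.93 lies below it.

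Utrn fell in all 3 populations. The FAP DKO libraries held 175, 149, 149 and 168 CPM and those of WT 180.5 to 216, without overlap (−0.31 ± 0.09, 0.809-fold, adjusted p = 0.028). The Misc DKO libraries held 139, 148, 146 and 162 CPM and those of WT 193 to 217, again without overlap (−0.43 ± 0.09, 0.742-fold, adjusted p = 0.0013). In SMP the DKO libraries held 256 and 229 CPM and the WT libraries 363 and 326 (−0.51 ± 0.13, 0.704-fold, adjusted p = 0.0062). No difference between these effects passed: it was 0.12 for FAP less Misc (95% interval −0.14 to 0.39), −0.20 for SMP less FAP (−0.52 to 0.12) and −0.08 for SMP less Misc (−0.40 to 0.24). The FAP call was lost without FAP WT replicate 1 (adjusted p = 0.054), 3 (0.062) or 4 (0.10) and without FAP DKO replicate 2 (0.10) or 3 (0.086). The SMP call was lost without SMP WT replicate 1 (adjusted p = 0.067) or SMP DKO replicate 2 (0.057), when SMP alone was fitted (0.066), and with the length trend removed, where the change was −0.14 (adjusted p = 0.41). The Misc call held under every alternative run, with adjusted p-values from 8.7e-06 to 0.01.

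Dag1 fell in FAP. It was at 264, 230.2, 246 and 240 CPM in FAP DKO, below all 4 WT libraries at 309 to 373 (−0.44 ± 0.09, 0.736-fold, adjusted p = 0.0022). The Misc libraries did not overlap either, with 246 to 263 CPM in WT and 221 to 244 in DKO, but the change did not pass (−0.16 ± 0.09, adjusted p = 0.25). In SMP it was at 1264 and 1081 CPM against 1275 and 1464 (−0.22 ± 0.13, adjusted p = 0.21). The difference between the FAP and Misc effects was −0.28 (95% interval −0.55 to −0.02, adjusted p = 0.34), so the effects are not shown to differ. For that pair of populations 0 members passed (2.79% of all genes). The endothelial marker sum was 299 to 362 CPM in FAP WT and 141 to 226 in FAP DKO, with 1 of 6 lower, 0 higher and 0 at 0 in all libraries. Most of it was Tek, which fell from 277 to 138 CPM, while Kdr was at 7.22 in WT and 14.2 in DKO without passing (adjusted p = 0.37, edgeR). The tendon marker sum was 665 to 901 CPM in FAP WT and 3127 to 5009 in FAP DKO, with 2 of 6 higher, 0 lower and 0 at 0 in all libraries, most of it Thbs4, from 330.005 to 3163. The part of these markers in the FAP results for Dag1 and Utrn was not tested.

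Among the sarcoglycans Sgcd changed with genotype. The Misc DKO libraries held 15.7, 14.4, 17.4 and 16.6 CPM, below all 4 WT libraries at 19.7 to 29.1 (−0.64 ± 0.14, 0.643-fold, adjusted p = 0.0020). In SMP it was at 1.58 and 2.37 CPM against 3.57 and 3.59 (−0.87 ± 0.30, adjusted p = 0.042), a call that rests on 28 counts in DKO and 85 in WT. Without SMP DKO replicate 1, SMP WT replicate 1 or SMP WT replicate 2 it was lost (adjusted p = 0.28, 0.11 and 0.093), as it was with the DESeq2 Wald test (0.074) and when SMP alone was fitted (0.31). In FAP DKO it was at 10.48 to 13.6 CPM, overlapping WT at 10.3 to 13.0 (−0.04 ± 0.15, 95% interval −0.34 to 0.26). The FAP and Misc effects differed by 0.60 ± 0.20, which did not pass over all genes (adjusted p = 0.14).

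Sgce, Sgcb and Sgca did not pass in any population. Sgce was nearly level, at 163 to 190.5 CPM in FAP DKO, 128 to 145 in Misc DKO, and 45.3 and 53.3 in SMP DKO. Its 95% intervals were −0.12 to 0.25 in FAP, −0.16 to 0.20 in Misc and −0.26 to 0.28 in SMP. Sgcb was at 66.7, 51.2, 66.7 and 64.4 CPM in FAP DKO, below all 4 WT libraries, but the change did not pass (−0.31 ± 0.11, adjusted p = 0.067). It did so when FAP alone was fitted (adjusted p = 0.040). Sgca in SMP was 0.14 ± 0.34 (adjusted p = 0.80).

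Of the syntrophins, Sntb1 rose in Misc. The Misc DKO libraries held 3.11, 3.59, 2.76 and 3.24 CPM, above all 4 WT libraries at 0.884, 2.21, 1.37 and 1.36 (1.13 ± 0.32, 2.19-fold, adjusted p = 0.015). The totals behind this are 103 counts in DKO and 70 in WT, and without Misc WT replicate 1 the call was lost (adjusted p = 0.077). Other marker sums moved with the Misc comparison. Of 10 mature fibre markers 4 rose and 0 fell, with a sum of 28.8 to 37.5 CPM in WT and 44.2 to 78.8 in DKO. Of 8 satellite cell markers 2 rose and 0 fell (41.1 to 62.1 CPM against 57.0 to 105). The fibro/adipogenic sum was 22767 to 23852 CPM in WT and 16146 to 18020 in DKO, with 1 of 7 higher and 1 lower. Smooth muscle and pericyte markers summed to 171 to 218 CPM in WT and 93.6 to 157 in DKO, with 1 of 8 lower and 0 higher. No marker of these lists was at 0 in all libraries of a Misc group, and their part in the Misc results for Utrn, Sgcd and Sntb1 was not tested. The FAP DKO libraries held 4.01, 1.57, 3.00 and 4.90 CPM, where replicate 2 lay within the WT range (0.81 ± 0.30, adjusted p = 0.091). Without FAP DKO replicate 2 that change passed (adjusted p = 0.035). In SMP it was at 5.53 and 5.48 CPM against 9.89 and 5.70 (−0.50 ± 0.38, adjusted p = 0.36). The effect in SMP less that in Misc was −1.64 ± 0.50 (adjusted p = 0.041). With replicate number as a block within genotype it no longer passed (adjusted p = 0.092), though numbers were not shown to pair SMP with Misc. Nor did the difference pass when those populations alone were fitted (adjusted p = 0.054). It was also lost without SMP WT replicate 1, either SMP DKO library, Misc WT replicates 1, 3 and 4 or Misc DKO replicates 1, 2 and 4, left out singly (adjusted p = 0.054 to 0.22).

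Sntb2 stood at 175, 246, 212 and 226 CPM in the FAP DKO libraries and at 159 to 180 in those of WT, where DKO replicate 1 overlapped WT. The change did not pass (0.33 ± 0.12, adjusted p = 0.079), but it did without FAP DKO replicate 1 (adjusted p = 0.024) and when FAP alone was fitted (adjusted p = 0.028). In Misc it was 0.20 ± 0.12 (adjusted p = 0.29) and in SMP 0.27 ± 0.17 (adjusted p = 0.27). With the length trend removed, the SMP value was 0.59 and passed (adjusted p = 0.016).

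Other genes of the pathway were taken from 4 lists: 11 further complex subunits, 18 genes of dystroglycan glycosylation, 10 extracellular ligands and 10 cytoskeletal partners. They gave 30 calls of DKO against WT, read here beside the percentages of all genes above. Of these, 10 held under each other setting and with each library left out in turn, among them Bgn and Nrxn2 in FAP, Ank2, Egflam, Nrxn2, Sync and Synm in Misc, and Ank3 in SMP. The other 20 were each lost in at least 1 of these runs, though none changed direction. Some were lost widely. In Misc, B3galnt2 kept its call in 5 of 14 runs and Drp2 in 6 of 14. In FAP, Dtna and Sync each kept theirs in 7 of 14. In SMP, Dolk and Sspn were lost with the length trend removed (adjusted p = 0.069 and 0.13, edgeR) and when SMP alone was fitted (0.30 and 0.23). Of the further subunits 10 were tested, and Sgcz (zeta-sarcoglycan) had 0 counts in all 20 libraries, which allows at most 0.177 to 0.470 CPM. In FAP 0 rose and 1 fell: Dtna, alpha-dystrobrevin, a dystrophin-like adaptor, from 3.17 to 1.21 CPM (−1.34 ± 0.40). In Misc 0 rose and 2 fell, among them Drp2, dystrophin related protein 2, from 23.3 to 17.5 CPM (−0.41 ± 0.14). In SMP 1 rose and 1 fell. Drp2 rose there, to 578 and 515 CPM from 385 and 378 (0.52 ± 0.18), while Sspn, sarcospan, fell from 50.9 to 32.7 (−0.64 ± 0.23). The Drp2 call in SMP was lost with any of the 4 SMP libraries left out (adjusted p up to 0.16).

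Of the glycosylation genes 17 were tested, and most did not pass. Pomt1, a protein O-mannosyltransferase subunit that starts the alpha-dystroglycan sugar chain, fell in FAP from 20.3 to 14.6 CPM (−0.49 ± 0.13) and in Misc from 18.6 to 14.1 (−0.40 ± 0.13). Its partner subunit Pomt2 fell in Misc from 26.2 to 19.5 CPM (−0.43 ± 0.13). Pomt1 was the only gene of the list called in FAP (0 higher, 1 lower). In Misc 1 rose and 2 fell, the riser being B3galnt2, a sugar transferase of the chain (0.36 ± 0.12). In SMP 1 rose and 1 fell, the riser being Dolk, dolichol kinase, from 3.73 to 6.18 CPM (0.73 ± 0.27).

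All 10 ligands were tested. In FAP 1 rose and 1 fell, in Misc 1 rose and 2 fell, and in SMP 3 rose and 1 fell. Nrxn2, a neurexin, fell in both FAP and Misc, from 7.52 to 11.3 CPM in FAP WT down to 2.05 to 2.98 in FAP DKO (−1.91 ± 0.26) and from 16.9 to 26.0 in Misc WT down to 2.59 to 4.98 in Misc DKO (−2.52 ± 0.25). Neither comparison overlapped. Bgn, biglycan, rose in FAP from 1980 to 3640 CPM (0.88 ± 0.14) and in SMP from 625 to 935 (0.58 ± 0.20). Without SMP DKO replicate 2 the SMP value of Bgn did not pass (adjusted p = 0.98). Egflam, pikachurin, rose in Misc from 52.2 to 95.9 CPM (0.88 ± 0.13) and fell in SMP from 22.8 to 14.1 (−0.69 ± 0.21). Hspg2, perlecan, rose in SMP (0.65 ± 0.18), as did Nrxn3 from 0.290 to 2.13 CPM. The Nrxn3 call rests on 7 counts in WT and 31 in DKO, and was lost when SMP alone was fitted (adjusted p = 0.075, edgeR). Lama2, the laminin chain of muscle basement membrane, did not pass in any population, with values of −0.07, −0.07 and 0.02.

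All 10 cytoskeletal partners were tested as well. In FAP 1 rose and 2 fell, in Misc 1 rose and 3 fell, and in SMP 2 rose and 1 fell. Ank3, ankyrin-G, which anchors dystrophin and dystroglycan at the membrane, fell in SMP, to 128 and 127 CPM from 247 and 248 (−0.95 ± 0.16). Its partner ankyrin-B, Ank2, fell in Misc from 75.5 to 54.4 CPM (−0.48 ± 0.10). Plec, plectin, rose in SMP from 211 to 364 CPM (0.79 ± 0.19), as did Grb2, a signalling adaptor (0.49 ± 0.13). Synm, the intermediate filament protein synemin, rose in FAP (0.49 ± 0.14) and fell in Misc (−0.54 ± 0.13). Sync, syncoilin, a partner of desmin and dystrobrevin, fell in FAP (−0.89 ± 0.29) and Misc (−1.20 ± 0.29). Actb fell in FAP (−0.43 ± 0.11) and Flnc, filamin C, rose in Misc (0.68 ± 0.19).

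The genes whose pattern over the 20 libraries was most like each member's were ranked by Pearson's r of log2 CPM among 10070 genes of mean CPM at least 5, as a description. The libraries share the 3 populations, so r mostly follows the differences between them. For Dmd they were Ank3 (r = 0.981), Mapt (0.978) and Clmn (0.974), and for Dag1 Ank3 (0.989), Pdk4 (0.988) and Actn3 (0.983). For Sgca they were Cxcr4 (0.978), Fndc3c1 and Clcf1 (0.971 each), and for Utrn they included Sin3a (0.948) and Rbm33 (0.942). For Sgce they were Cpq (0.988), Cd302 (0.983) and Fgf18 (0.981), and for Sgcd Svil and Inpp5b (0.985 each) and Chrdl1 (0.983). For Sntb2 they were Il1r1 (0.973), Plscr1 (0.969) and Uap1 (0.968). The likeness was weaker for Sgcb, with Eapp (0.929) first, and for Sntb1, with Slc7a2 (0.882) first. Among the members themselves, Dmd and Dag1 had r = 0.971 over the 20 libraries and 0.479 over the 16 of FAP and Misc. Sgca and Sgce had r = −0.967 over the 20. Within the 16, Sgce and Sntb2 had r = 0.85, and Sgcd and Sntb2 −0.837.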

How the data were processed

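RNA of 20 libraries was read in 100-base pairs and mapped by the authors with OSA to mm10 with RefSeq annotation, per the series design text, and the submitters' processing notes list DESeq2. The values are raw exon counts by gene, as deposited by the authors; neither counting tool nor strand setting is stated, so reads of genes that overlap, antisense ones included, may be mixed. Whether replicates were separate animals is given only by the word biological, and p-values measure the spread between these libraries.

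Of 24393 genes, 24312 identifiers matched RefSeq (GRCm38.p6), and 52 blank or date-like symbols were restored; 5031 genes had no count. Genes passing edgeR's filterByExpr (minimum count 10, total 15, smallest group 2) numbered 14179. After TMM scaling, a robust quasi-likelihood model (edgeR 4.0.16, R 4.3.3, no block) was fitted to the 6 groups. It gave DKO against WT, the populations in pairs, and differences of DKO effects, with Benjamini-Hochberg adjusted p below 0.05 called. Standard errors are the absolute log2 change over the square root of F. Lengths are of the longest RefSeq-matched transcript in GENCODE M21, known for 21212 genes. The 95% intervals come from the fit and include the spread between libraries; limits set by a count of 0 cover counting error only.

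Named genes were all 9 members, from each pathway list at most 4 called genes per DKO comparison by smallest p, the 3 genes most like each member (log2 CPM, prior count 2), and Des and Syne1; Lama2, Sgcz and cell type markers are named outside that rule, and a few genes that meet it are not reported here. The members and lists were chosen with earlier results of these data known. Marker lists were mature fibre, satellite cell, fibro/adipogenic, tendon, endothelial, smooth muscle and pericyte, Schwann and leukocyte; Schwann markers summed to 183 to 305 CPM in SMP and at most 58.5 elsewhere, with 0 of 6 passing in any DKO comparison.

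Replicate numbers were checked for pairing by correlating deviations from group means. Same-numbered FAP and Misc libraries gave r of 0.181 to 0.343 (DKO) and 0.175 to 0.234 (WT), against −0.184 to 0.063 for other numbers, so numbers pair FAP with Misc within a genotype; no label states this. Same-numbered DKO and WT libraries gave −0.164 to 0.292 and were not taken as pairs. Same-numbered SMP libraries gave −0.261 to −0.083 with FAP and −0.075 to −0.069 with Misc in DKO. In WT they gave 0.026 to 0.064 with FAP and −0.043 to 0.037 with Misc. Numbers are thus not shown to pair SMP with either, and replicate blocks are no paired check on SMP results. On simulated counts the test recovered 83% of 100 genes changed 2-fold in FAP (13874 genes tested), 77% in Misc (13871) and 61% in SMP (13877). It also called 13, 8 and 9 unchanged genes. Changes below 2-fold, the size of most member changes here, were not simulated, so these rates do not describe them. Other settings tried were the Wald test and the size factors of DESeq2 1.42.0, unfiltered genes, a fit of the compared groups alone, replicate blocks, a transcript length offset (lowess span 0.3) and each library left out.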

Additional observations from a re-analysis of the deposited data

Results flagged for a closer look

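Among the 36 sets of 4 libraries (9 members in 4 groups of FAP and Misc), 4 held a library far from the other 3, by the gap to its nearest neighbour over the range; chance gives about 1 in 20 such sets. Utrn in Misc WT replicate 1 was at 217.3 CPM, above the others (gap over range 0.918). Dag1 in Misc DKO replicate 2 was at 244.3 CPM, the highest of its group (0.837). Sgcb in FAP DKO replicate 2 was the lowest of its group, at 51.23 CPM (0.849), and Sgcd in FAP DKO replicate 1 the highest of its group, at 13.62 CPM (0.846).

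The DKO effect differed between populations for 2 members, by a test of the difference itself (edgeR quasi-likelihood test, adjusted over all genes). For Dmd, the effect in SMP less that in FAP was −0.897 on the log2 scale (adjusted p = 0.00618), and less that in Misc −1.081 (adjusted p = 0.00134). For Sntb1, the effect in SMP less that in Misc was −1.636 (adjusted p = 0.0408); leaving out 1 library at a time lost this call for 9 libraries.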

How the results depend on the processing

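No value that passed in the main or the alternative fit changed direction. Values that passed in neither could change sign and are counted below as kept. Sgce in SMP, DKO against WT, ran from −0.172 to 0.19, for example. Of 108 single-gene values, 105 kept their side of the threshold with DESeq2 size factors, 104 with the DESeq2 Wald test and 107 with no filter. With a replicate block by number 104 did, and with the length offset 104. With only the compared groups 97 of 103 did, with the block within genotype 79 of 81, and with 1 library left out 860 of 900. Dmd in SMP, Dag1 in FAP, and Utrn and Sgcd in Misc kept their calls in all of them. The count of members called between DKO and WT was 4 in FAP and 1 in SMP with only the compared groups, against 2 and 3. For the SMP less Misc effect it was 1 with only the compared groups, 1 with the replicate block by number and 1 with that within genotype, against 2. Replicate numbers were not shown to pair SMP libraries. For the SMP less FAP effect the count was 0 with the length offset, against 1. With 1 library left out, the count ran from 1 to 3 in FAP, from 1 to 2 in SMP, from 1 to 2 for the SMP less FAP effect and from 1 to 2 for the SMP less Misc effect; where this left SMP with 1 library in a group, that library is assumed to vary like the other groups. The cause of these shifts was not tested, except that only the compared groups and left-out libraries use fewer samples. The replicate block by number also moved Sgcb in WT to adjusted p = 0.0665 (FAP and Misc) and 0.0715 (SMP and Misc), Sgca in DKO (FAP and Misc) to 0.0569 and the Sntb1 effect (SMP less Misc) to 0.0592; the block within genotype changed no call but those given beside the results. With DESeq2 size factors Sgcd in SMP WT was at 3.627 CPM and Sntb1 in SMP DKO at 5.672.

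Over all genes, calls in SMP were 3257, against 924 with only the SMP groups and 1821 without SMP WT replicate 1. In FAP they were 1520, against 997 without FAP WT replicate 1 and 932 without FAP DKO replicate 2. Calls for the SMP less FAP effect fell from 1465 to 777 without SMP WT replicate 1; those for SMP less Misc fell from 1268 to 782 without it and were 800 with only the compared groups. Depth limits Sgcd and Sntb1 in SMP, which rest on 28 and 79 counts in DKO. The settings were applied to the 30 pathway list calls after seeing the data: 10 held in all, and none of the 30 reversed.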
